A study of Mus musculus with 4 samples.

Results

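Paneth cells are secretory cells at the base of the small intestinal crypt, next to the stem cells. They pack antimicrobial proteins into large granules and release them into the crypt, where they act on bacteria, and they also give Wnt and Notch signals to neighbouring stem cells. The genes described here are 9 genes of these granules and of the Paneth cell secretory programme, chosen by name with earlier results of these data known. They are the lysozyme genes Lyz1 and Lyz2, the ribonuclease gene Ang4, the metalloproteinase gene Mmp7, the lectin gene Itln1, the plasma protease gene Habp2, the stress-response gene Nupr1, and the lipase cofactor and lipase genes Clps and Pnliprp2. All 9 had a row in the table of 22632 genes, Itln1 under that symbol, and all 9 reached 1 RPKM (a read count scaled by the length of the gene and the size of the library) in at least 1 library.

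RNA was sequenced from mouse small intestinal organoids, epithelial cultures grown from whole crypts, 24 hours after seeding. There were 4 libraries in 4 groups, 1 per group. The Yap+/- group came from Yap+/fl;VillinCre mice, which keep 1 working copy of Yap1, the gene of the co-activator YAP restrained by the Hippo pathway. The Yap-/- group came from Yapfl/fl;VillinCre mice, in which both copies are lost in cells where the Villin promoter drives Cre, the intestinal epithelium. The YapTg groups carried a doxycycline-inducible wild-type Yap transgene under a Cre-driven reverse tetracycline transactivator, and were grown without the drug or with 1.5 mg/ml doxycycline from seeding. Labels and protocols were the sources for the design. The Cre of the YapTg line, the ages of the mice and the number of mice behind each culture are not stated in those sources. No culture had doxycycline without the transgene, so drug and transgene cannot be told apart.

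Library totals were between 44934170 and 75269003 reads. Where 4 values follow each other below, they are in library order: Yap+/-, Yap-/-, uninduced YapTg, induced YapTg. Yap1 was at 16.7, 3.35, 25.1 and 1039 RPKM in that order, lower where it was deleted and higher where it was induced. With 1 library per group no difference has a replicate check, and every interval covers counting error only. Alpha-defensin genes summed to between 3521 and 12148 RPKM, so each culture held Paneth cell transcripts. In whole cultures, fewer Paneth cells and less RNA per Paneth cell cannot be told apart.

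The sequence upstream of 4 of the genes is shown first. Lyz1 and Lyz2 are neighbouring duplicates on chromosome 10 whose levels differed by at least 2585 times, and Ang4 and Mmp7 are antimicrobial-pathway genes that were high in the same libraries. The windows come from RefSeq (GRCm38.p6, another build than the mm9 of the deposited values), which had entries for 8 of the 9 genes, not Clps. They read 5′ to 3′ toward the gene. They begin 250 bases before the start and stop 50 bases before it for Lyz1 and Lyz2, where a GENCODE exon of the gene begins, or 1 base before it for the others. Capitals mark the letters of the motifs named below. The windows are chr10:117292918-117293118 on the minus strand for Lyz1, chr10:117282322-117282522 on the minus strand for Lyz2, chr14:51773591-51773840 on the minus strand for Ang4 and chr9:7691840-7692089 on the plus strand for Mmp7.
Lyz1: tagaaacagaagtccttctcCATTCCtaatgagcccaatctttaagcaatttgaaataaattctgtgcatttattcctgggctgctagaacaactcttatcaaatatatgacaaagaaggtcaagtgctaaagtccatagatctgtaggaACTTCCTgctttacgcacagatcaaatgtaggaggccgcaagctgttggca
Lyz2: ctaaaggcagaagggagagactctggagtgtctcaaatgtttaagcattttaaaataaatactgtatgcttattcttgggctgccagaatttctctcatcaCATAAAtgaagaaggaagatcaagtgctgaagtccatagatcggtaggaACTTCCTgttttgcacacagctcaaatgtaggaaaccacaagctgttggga
Ang4: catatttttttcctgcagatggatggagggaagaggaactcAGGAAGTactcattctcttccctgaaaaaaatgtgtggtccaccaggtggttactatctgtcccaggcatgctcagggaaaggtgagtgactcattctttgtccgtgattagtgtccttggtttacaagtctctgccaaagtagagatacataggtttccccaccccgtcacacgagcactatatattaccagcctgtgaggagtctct
Mmp7: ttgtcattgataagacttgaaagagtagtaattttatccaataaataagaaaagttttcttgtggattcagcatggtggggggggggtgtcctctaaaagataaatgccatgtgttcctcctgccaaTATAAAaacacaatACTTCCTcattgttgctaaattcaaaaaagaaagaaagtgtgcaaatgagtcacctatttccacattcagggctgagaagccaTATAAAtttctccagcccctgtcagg

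The motifs were chosen after these windows were seen, and both strands were searched over the 250 bases before each start. Because of that choice, the counts set against all windows cannot show enrichment. The ETS core AGGAAGT (reverse ACTTCCT) was in 4 of the 8 windows, those of Lyz1, Lyz2, Ang4 and Mmp7. It was in 7.69% of 32851 RefSeq windows of the same length. In Lyz1 and Lyz2 it lies at the same place, 100 to 94 bases before the start, so the pair is 1 duplicated match. The TEAD motif GGAATG, the letters bound by the DNA-binding partners of YAP, was in 2 of 8, Lyz1 and Habp2, against 12.6% of all windows. The CDX-type motif TTTATG was in Lyz2 and Itln1, against 10.8%, and the TATA box TATAAA was in Mmp7 only, at 2 places, against 12.4%. The Wnt effector motif ATCAAAG (TCF/LEF) was in 0 of 8 and in 3.21% of all windows. No overlap between different motifs occurred in the printed windows. A match is a run of letters, not a bound site.

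Lyz1 encodes the Paneth cell lysozyme, which cuts the cell wall of bacteria. Its gene (ENSMUSG00000069515) stood at 1591, 3010, 3772 and 2358 RPKM in library order, the highest level of the 9 genes in every library. Yap+/- was the lowest library and uninduced YapTg the highest. Lyz1 was 1.89-fold higher in Yap-/- than in Yap+/- organoids (95% interval 1.88 to 1.91) and 1.60-fold lower with than without doxycycline (95% interval 1.59 to 1.61). Between the reference libraries, Yap+/- was 2.37-fold below uninduced YapTg organoids, a wider gap than with loss or with induction. The Lyz1 reads made up 0.201% of the Yap+/- library and 0.477% of the uninduced YapTg library.

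Lyz2 (ENSMUSG00000069516) encodes the lysozyme of macrophages and other myeloid cells. It was at 0.615, 1.00, 1.25 and 0.557 RPKM in library order, on 46, 89, 74 and 55 reads in that order. In RPKM, Lyz1 stood 2585 times to 4238 times above Lyz2. The Lyz2 reads made up 40.2, 34.5, 34.5 and 24.5 of every 100000 reads of the pair, with exact 95% intervals of 29.4 to 53.6 in Yap+/- and 18.5 to 31.9 in induced organoids. These intervals overlap. The annotated transcripts are 96.0% identical over 1262 aligned bases, with a longest shared run of 118 bases, so how many of the Lyz2 reads came from Lyz1 transcripts was not tested. Of 16 listed myeloid markers, 13 stayed under 1 RPKM in all libraries. C1qb was at 0 in all, and Emr1 (F4/80) stayed at or below 0.0162 RPKM. Cd14, Csf1r and Cd68 reached 1 RPKM. Csf1r was at 1.13, 1.17, 1.17 and 1.99 RPKM and Cd68 at 0.601, 0.611, 1.22 and 0.782 RPKM in library order. Lyz2 itself was no higher than 1.25 RPKM. The list summed to between 7.97 and 9.89 RPKM, Cd14 included. Whether the Lyz2 reads came from myeloid cells was not tested. The first 100 bases before the start are 92.0% identical between Lyz1 and Lyz2, and the whole 250 bases 80.6%. Both figures include the bases nearest the start that the printed windows leave out because of a GENCODE exon. They are therefore not figures of upstream sequence alone.

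Ang4 (ENSMUSG00000060615) encodes angiogenin 4, a ribonuclease that kills bacteria. It was at 220, 482, 414 and 193 RPKM in library order. Yap-/- was its highest library and the induced library its lowest. Ang4 was 2.20-fold higher without Yap (95% interval 2.14 to 2.25) and 2.15-fold lower with doxycycline (95% interval 2.10 to 2.21), and was the 1 member past 2-fold in both pairs by the rule given below. Other angiogenin family genes did not have the same pattern. Ang was at 8.61, 11.9, 6.85 and 2.25 RPKM in the same order and Rnase4 at 32.7, 42.2, 28.7 and 8.19 RPKM, with Yap+/- above uninduced YapTg in both, while Ang2 was listed at 0 in all libraries. Of 8 listed family genes 3 reached 1 RPKM. Each of these 3 was past 2-fold lower with doxycycline (median log2 ratio -1.27), against 5.8% of all genes.

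Itln1 (ENSMUSG00000038209) encodes intelectin 1, a lectin that binds microbial sugars and is made by Paneth and goblet cells. It was at 511, 1119, 1192 and 711 RPKM in library order. Its levels were close in the Yap-/- and uninduced libraries and lower in the other two. It was 2.19-fold higher without Yap (95% interval 2.16 to 2.22), 1.68-fold lower with doxycycline and 2.33-fold lower in Yap+/- than in uninduced YapTg organoids. Itln1 kept the most even proportion to Lyz1 of the 8 other members, between 301 and 372 RPKM per 1000 RPKM of Lyz1.

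Mmp7 (ENSMUSG00000018623) encodes matrilysin, the protease that cuts mouse alpha-defensin precursors into active peptides. It was at 62.5, 95.2, 96.3 and 62.7 RPKM in library order. The libraries thus fell into a low pair and a high pair. Mmp7 was 1.52-fold higher without Yap (95% interval 1.46 to 1.58) and 1.54-fold lower with doxycycline (95% interval 1.48 to 1.60). Mmp7 lies near Yap1 on chromosome 9 in the GENCODE M21 annotation, with 4 other genes of the table between them. Those 4 had small differences with loss of Yap. Tmem123 was at 5.59 and 5.80 RPKM, the apoptosis inhibitor genes Birc2 and Birc3 at 6.35 and 6.33 and at 5.74 and 5.39 RPKM, and Gm10709 below 1 RPKM, in Yap+/- and Yap-/- in turn. On the far side of Mmp7, the metalloproteinase genes Mmp20, Mmp27 and Mmp8 were at or under 0.203 RPKM in all libraries. On the far side of Yap1, AK129341, 9230110C19Rik and 1700128F08Rik stayed at or below 0.769 RPKM. Of 121 genes within 30 Mb of Yap1 at 1 RPKM or more in that pair, 2 were past 2-fold higher and 0 past 2-fold lower (median log2 ratio 0.07), against 0.336% and 0.57% of all genes. Among other metalloproteinase and inhibitor genes, Mmp14, a membrane-bound protease, was at 8.02 RPKM without and 20.2 RPKM with doxycycline. The inhibitor gene Timp2 was at 0.0971 RPKM without and 2.05 RPKM with the drug, on 17 and 601 reads, a 21.1-fold difference (95% interval 13.1 to 36.5). Mmp15 was at 9.54 and 8.84 RPKM.

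Habp2 (ENSMUSG00000025075) encodes a plasma serine protease that binds hyaluronan. It was at 3.11, 4.99, 4.22 and 1.91 RPKM in library order. Its order of libraries was that of Ang4. It was 1.60-fold higher without Yap (95% interval 1.45 to 1.78) and 2.21-fold lower with doxycycline (95% interval 1.96 to 2.50).

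Clps (ENSMUSG00000024225) encodes colipase, the cofactor that anchors pancreatic lipase to fat droplets, and Pnliprp2 (ENSMUSG00000025091) encodes a lipase that cuts galactolipids and phospholipids. Clps was at 43.9, 72.0, 81.8 and 43.0 RPKM in library order. It was 1.64-fold higher without Yap (95% interval 1.54 to 1.75) and 1.90-fold lower with doxycycline (95% interval 1.78 to 2.03). Pnliprp2 was at 31.3, 53.0, 35.8 and 38.0 RPKM in library order, so only the Yap-/- library stood apart. It was 1.69-fold higher without Yap (95% interval 1.62 to 1.77) and 1.06-fold higher with doxycycline (95% interval 1.01 to 1.12). These lipid-digesting genes are best known from the acinar cells of the pancreas. Of 20 acinar markers, 16 stayed under 1 RPKM in all libraries. The amylase gene Amy2a5, the protease genes Prss1 and Ctrc, Ptf1a and Gp2 were at 0 in all 4, and the lipase gene Pnlip reached at most 0.420 RPKM. Zg16, also a goblet marker, made up most of the summed level; the other 19 summed to 17.8, 25.4, 8.35 and 2.98 RPKM in Yap+/-, Yap-/-, uninduced and induced organoids. Ctrb1, a chymotrypsinogen gene, was the highest of the 19 in both Yap libraries (11.6 and 18.4 RPKM), and the elastase gene Cela1 in both YapTg libraries (4.50 and 1.49 RPKM).

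Nupr1 (ENSMUSG00000030717) encodes a small chromatin protein induced by cell stress. It was at 7.46, 8.88, 12.9 and 12.9 RPKM in library order. Both Yap libraries were below both YapTg libraries. It was 1.19-fold higher without Yap (95% interval 1.10 to 1.29), and its ratio with doxycycline was 0.999 (95% interval 0.936 to 1.07). Its RefSeq window holds the ATF4 composite element TGATGCAA on the opposite strand, 110 to 103 bases before the RefSeq start. The match was found in 1 of the 8 windows and in 0.791% of all windows. The search did not leave out bases in GENCODE exons of the gene, as the printed Lyz1 and Lyz2 windows do. The site may therefore lie inside an annotated exon of Nupr1 rather than upstream of the gene. The site is printed because it sets Nupr1 apart from the other members by letters, at chr7:126625562-126625591 on the minus strand, with the match in capitals.
Nupr1: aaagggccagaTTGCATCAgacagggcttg

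Other genes of the ATF4 stress response had another pattern than Nupr1. Of 13 listed, 12 were lower in Yap-/- than in Yap+/- organoids (median log2 ratio -0.43), where 65.5% of all genes were higher. With doxycycline 12 were higher (median 1.00), 6 of them past 2-fold, against 5.85% of all genes past 2-fold higher. Atf3 was at 7.12, 3.19, 5.98 and 43.7 RPKM in library order, and the glutathione-degrading enzyme gene Chac1 at 9.42, 5.45, 10.2 and 32.3 RPKM.

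**Figure D1:**
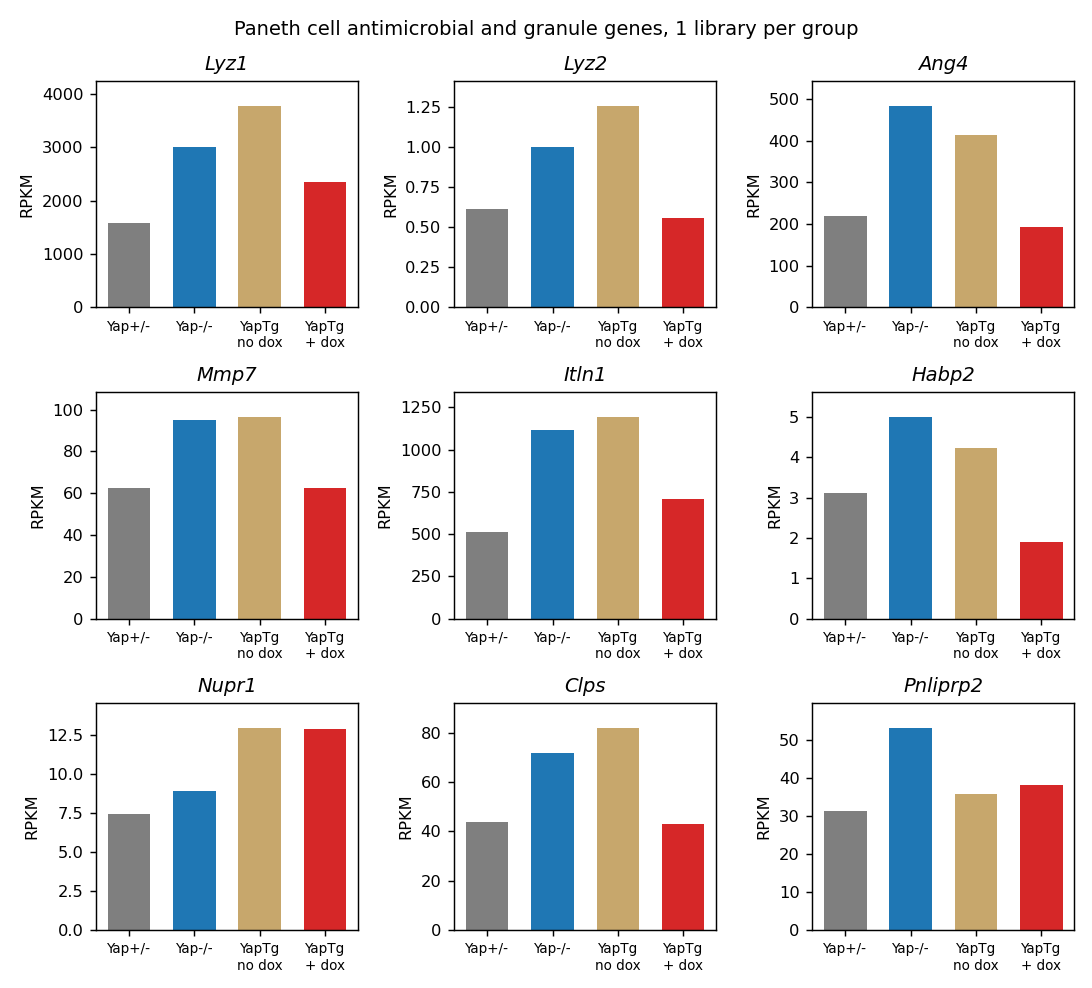
RPKM (vertical axes, each from 0) of the 9 genes in the 4 libraries, 1 bar per library and no error bars because each group had 1 library. In 7 of the 9 genes, Nupr1 and Pnliprp2 apart, the Yap-/- and uninduced YapTg bars both stand above the Yap+/- and induced bars.

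Read over all 9 genes, the Yap+/- library was below both the Yap-/- and the uninduced YapTg library for 9 of 9, an order held by 44.6% of the 11285 genes that reached 1 RPKM in some library. The Yap-/- and uninduced libraries were both above the Yap+/- and induced libraries for 7 of 9, against 18.3% of those genes. The lowest library was Yap+/- for 5 genes and induced YapTg for 4. The highest was uninduced YapTg for 6 genes and Yap-/- for 3. Together the 9 genes held 0.292% of the reads of the Yap+/- library, 0.569% of Yap-/-, 0.667% of uninduced and 0.412% of induced YapTg organoids.

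The comparison of Yap-/- with Yap+/- organoids asks which transcripts depend on Yap. All 9 genes were higher in Yap-/- organoids, from 1.19-fold (Nupr1) to 2.20-fold (Ang4). A gene was called when its log2 ratio of RPKM + 1 reached 2-fold and the higher library 1 RPKM. By that rule 2 of 9 were higher, Ang4 and Itln1, against 0.336% of 10710 genes, and 0 of 9 were lower, against 0.57%. A 4-fold difference upward was reached by 0 of 9 and by 0.00934% of genes. The median log2 ratio of the 9 was 0.70, and that of all genes was 0.05. Being higher by any amount was common, at 65.5% of all genes. Counting intervals lay above 1 for 9 of 9, and for 40.8% of all genes. Ang4 and Itln1 ranked 21 and 22 from the top of 10710 genes and Lyz1 ranked 49, while Nupr1 ranked 1181.

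The comparison of induced with uninduced YapTg organoids asks what excess Yap does. Of the 9 genes, 7 were lower with doxycycline, from 1.54-fold (Mmp7) to 2.25-fold (Lyz2), and Nupr1 and Pnliprp2 had ratios of 0.999 and 1.06. By the rule above 1 of 9 was lower, Ang4, against 5.8% of 11108 genes, and 0 of 9 were higher, against 5.85%. A 4-fold difference downward was reached by 0 of 9 and by 1.09% of genes. Lower by any amount were 8 of 9, against 54.5%, of which Nupr1 turned to a log2 ratio of 0.04 after median-ratio scaling. Habp2 and Lyz2 were past 2-fold in RPKM and short of it on the RPKM + 1 scale, which understates low genes. The median log2 ratio of the 9 was -0.68, and that of all genes -0.04. Ratios of this size were frequent in this pair. Lyz1, for example, had 10.7% of all genes below it and Ang4 had 4.99%. Counting intervals lay below 1 for 7 of 9, against 45.9% of genes, and above 1 for 1, Pnliprp2, against 37.2%.

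The reference libraries, Yap+/- and uninduced YapTg, had neither full loss of Yap nor induction. All 9 genes were lower in the Yap+/- library, from 1.14-fold (Pnliprp2) to 2.37-fold (Lyz1). By the rule, 2 of 9 were lower, Lyz1 and Itln1, against 0.726% of 10883 genes, and 0 of 9 were higher, against 1.11%. A 4-fold difference downward was reached by 0 of 9 and by 0.184% of genes, and 65.6% of genes were lower by any amount. The median was -0.72, and that of all genes -0.11; scaling by the median ratio moved the latter to 0.02 and the median of the 9 to -0.58. Over all genes the split of 121 past 2-fold higher and 79 lower became 173 and 60 with that scaling. Counting intervals lay below 1 for 9 of 9, against 52.9% of genes. This pair shares the Yap+/- library with the loss comparison and the uninduced library with the induction comparison, so the 3 sets of values are not independent, and its gaps were about as large as theirs.

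**Figure D2:**
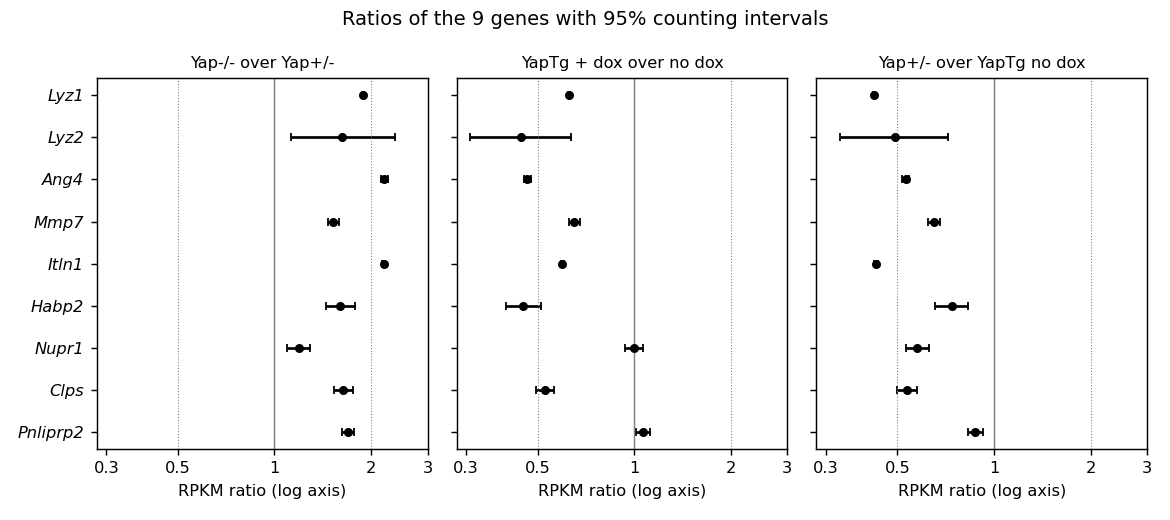
Ratio of RPKM (horizontal log axis) for each of the 9 genes in 3 comparisons; points are the ratio of 1 library over another and bars are exact 95% intervals from reads, which cover counting error only. All 9 points lie right of 1 for Yap-/- over Yap+/- and left of 1 for Yap+/- over uninduced YapTg, and Nupr1 and Pnliprp2 lie near 1 with doxycycline; dotted lines mark 2-fold.

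**Figure D3:**
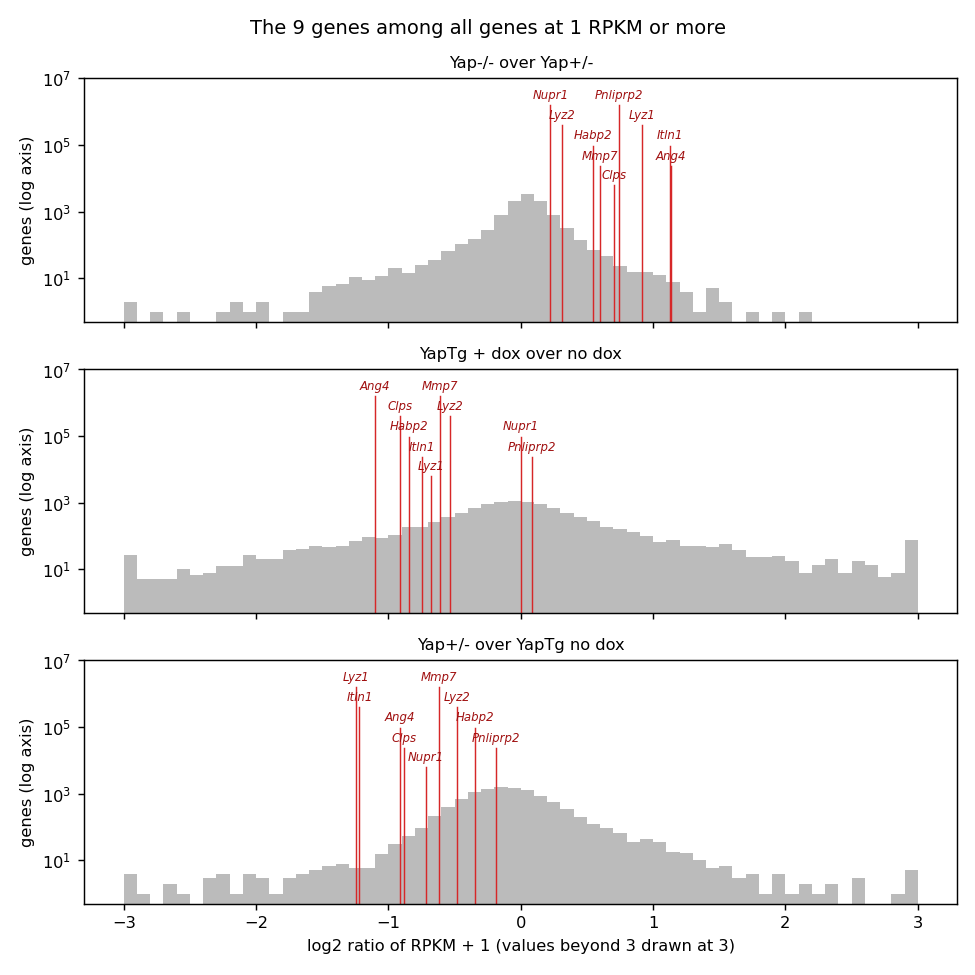
Numbers of genes (vertical log axis) by log2 ratio of RPKM + 1 (horizontal axis, bins of 0.1 wide, values beyond 3 drawn at 3) among genes at 1 RPKM or more, with the 9 genes as red lines whose heights only separate the labels. Ang4 and Itln1 lie in the sparse right edge for loss of Yap, while with doxycycline the same-sized ratios lie in a well-filled flank.

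Against Lyz1 in the same library, the other members show how far the group kept its proportions. Ang4 was at 138, 160, 110 and 81.6 RPKM per 1000 RPKM of Lyz1 in Yap+/-, Yap-/-, uninduced and induced organoids. Clps was at 27.6, 23.9, 21.7 and 18.3, and Habp2 at 1.96, 1.66, 1.12 and 0.810. All 3 were lowest relative to Lyz1 in the induced library. Nupr1 was highest there, at 5.48 against 2.95 in Yap-/- organoids. Pnliprp2 was at 9.49 in the uninduced library and between 16.1 and 19.7 in the others.

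**Figure D4:**
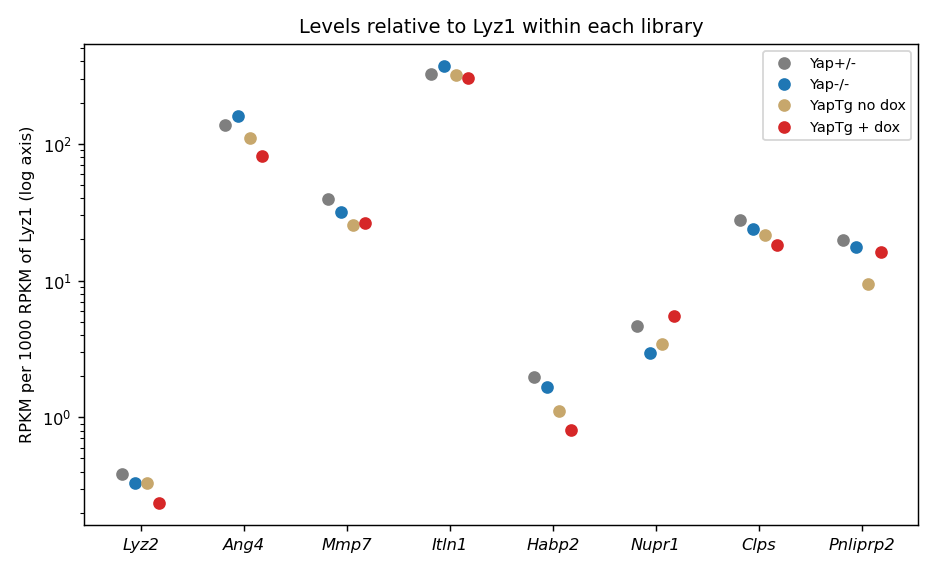
RPKM of 8 genes per 1000 RPKM of Lyz1 in the same library (vertical log axis), 1 point per library, with no error bars. Itln1 spans 301 to 372, a range of 1.23-fold, and Habp2 spans 0.810 to 1.96, a range of 2.42-fold.

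Likeness to a member was measured as the Euclidean distance between centred log2(RPKM + 1) values over the 4 libraries, among 7988 genes at 5 RPKM or more in some library. The 5 nearest to Lyz1, apart from members and predicted genes, were Galnt11 (distance 0.21), Defa24 (0.24), Defa17 (0.27), Tmem45b (0.29) and Defa-rs7 (0.35), of which 3 are alpha-defensin genes. Galnt11, a glycosyltransferase gene, was low throughout, with 2.79 RPKM in the Yap+/- library and 6.47 in Yap-/-. Among members, Itln1 ranked 3 by likeness to Lyz1, Clps 16 and Mmp7 25, while Nupr1 ranked 352, Ang4 496 and Pnliprp2 1307. The 5 nearest to Ang4 were Mreg, Ifitm3, Prss30, Igfbp4 and Mycl1, at distances of 0.40 to 0.46, none of them a defensin gene. With 4 points per gene these distances are descriptions.

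Alpha-defensin genes, whose peptides share the granules, were 1.19-fold to 2.97-fold higher without Yap and up to 1.68-fold lower with doxycycline. These directions held for 12 of 12 in each case, against 65.5% and 54.5% of all genes, with medians of 0.86 and -0.55. Between the reference libraries they differed more than the 9 genes did, by 2.65-fold to 15.5-fold, Defa21 going from 55.7 RPKM (Yap+/-) to 866 RPKM (uninduced YapTg); these copies share sequence and can share reads.

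Signals that Paneth cells give to stem cells were few at this depth of expression. With doxycycline, 3 of 5 listed genes at 1 RPKM were past 2-fold lower, against 5.8% of all genes. Past 2-fold higher were 0, against 5.85%, and the median log2 ratio was -1.19. The Notch ligand gene Dll4 was at 3.02 RPKM without and 0.538 with the drug, and Wnt3 at 2.79 and 0.514. Of the 5, 4 were lower and 1 was higher, Tgfa, at 8.22 RPKM without and 12.5 RPKM with the drug. Without Yap, 6 of 6 were higher, against 65.5% of all genes, and 0 reached 2-fold, with a median of 0.11. Egf stayed at or below 0.433 RPKM in every library.

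Factors of Paneth cell formation and secretion were lower with doxycycline in 11 of 14 listed genes, against 54.5% of all genes. Their median log2 ratio was -0.49, and 3 were past 2-fold lower, against 5.8% of all genes. Those 3 were Creb3l1, a factor of the secretory pathway (9.69 RPKM without and 1.28 with the drug), Spdef, a factor of goblet and Paneth cell maturation (7.73 and 1.13), and Atoh1, the switch to the secretory fate (7.23 and 1.04 RPKM, named after its values were seen). Sox9, which Paneth cells need to form, was at 11.2 and 8.81 RPKM. Without Yap, 12 of 14 were higher, against 65.5% of all genes, and 0 reached 2-fold, with a median of 0.24. Ephb3, a receptor that keeps Paneth cells at the crypt base, was at 4.94 RPKM (Yap+/-) and 7.42 RPKM (Yap-/-).

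Other products described in Paneth cells were lower with doxycycline in 14 of 16 genes, against 54.5% of all genes. Their median log2 ratio was -1.55, and 11 were past 2-fold lower, against 5.8% of all genes. The antimicrobial lectin gene Reg3a was at 108 RPKM without and 3.98 with the drug, and the disulfide isomerase gene Agr2 at 210 and 32.2. Many of them are also made in goblet cells or enterocytes. Without Yap, 13 of 18 were higher, a share near the 65.5% of all genes, with 1 past 2-fold on the RPKM + 1 scale and a median of 0.36. Pnliprp1, a lipase-related gene, was 2.52-fold higher in RPKM (0.412 and 1.04) and short of 2-fold on that scale. The gene past it, Gm15284, had 873 RPKM (Yap+/-) and 1768 RPKM (Yap-/-).

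Markers of neighbouring cell types were counted in the same pairs. These lists are not separate from the Paneth cell factors and products above. The goblet list shares Atoh1, Spdef, Tff3, Agr2 and Ccl9 with them, and the stem cell list shares Sox9 and Ascl2. None of these is among the 9 genes. Without Yap, where 65.5% of all genes were higher, goblet markers were higher for 12 of 12 (median 0.43, 0 past 2-fold), enterocyte markers for 9 of 12 (median 0.32, 0 past 2-fold) and stem cell markers for 9 of 9 (median 0.34, 1 past 2-fold). With doxycycline, 11 of 12 goblet, 7 of 12 enterocyte and 7 of 9 stem cell markers were past 2-fold lower, against 5.8% of all genes. Their medians were -2.02, -1.88 and -1.33. For the 9 Paneth cell genes the count was 1 of 9 and the median -0.68. Between the reference libraries, stem cell markers were lower in Yap+/- organoids for 9 of 9 (median -0.74), against 65.6% of all genes. Goblet markers were lower for 7 of 12 (median -0.32) and enterocyte markers for 4 of 12 (median 0.41). The median of the 9 Paneth cell genes in that pair was -0.72. Goblet markers summed to between 664 RPKM (induced) and 3439 RPKM (Yap-/-). The part of these cell types in the values of the 9 genes was not tested.

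**Figure D5:**
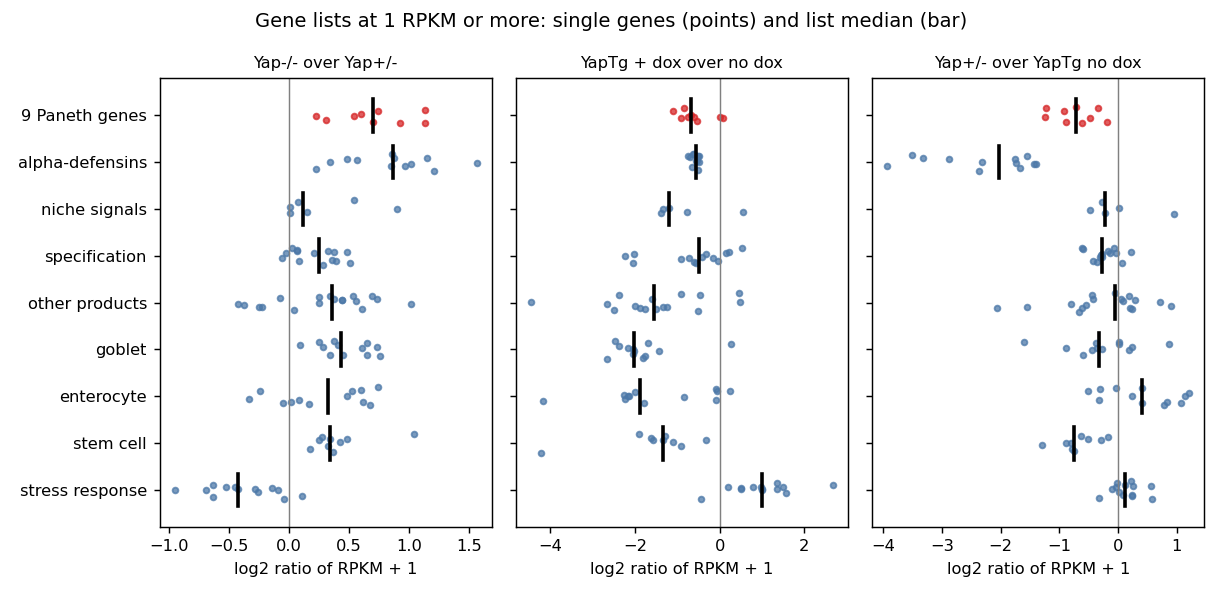
Log2 ratio of RPKM + 1 (horizontal axes, scaled separately) of single genes at 1 RPKM or more (points, spread vertically at random) with the list median (black bar) in 3 comparisons, 1 library per group. With doxycycline the 9 Paneth genes and the alpha-defensins lie near -0.68 and -0.55, the goblet and enterocyte medians near -2.02 and -1.88, and the stress response genes above 0.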

How the data were processed

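RNA-seq libraries of 4 mouse organoid cultures were analysed, 1 per group, grouped by genotype and title. Tools in the submitters' processing notes are TopHat 1.4.1, CASAVA 1.8 and FastQC, and the build is mm9. For the counter, the gene annotation and the strand setting, nothing is given in the sources used here. Since the authors' header names no unit, the deposited values were identified as RPKM from the values themselves. All 4 columns were used (0 left unused). Reads were recovered as whole numbers from RPKM, library totals solved from GENCODE M21 gene lengths (totals within 0.00024 of whole numbers), and a gene length that made reads whole within 0.01 in every library. For each of the 9 members only multiples of 1 length fitted, and the one nearest the GENCODE length was taken; it equalled it for 3 of 9. The script was tested on simulated data.

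Log2 ratios used RPKM plus a pseudocount of 1; folds are ratios of RPKM. With 1 library per group there was no test. Intervals are exact conditional binomial (Clopper-Pearson) at 95%, and PCR copies are not independent molecules. Tried instead were a pseudocount of 0.1 or 5, scaling by median ratio or by upper quartile, a floor of 5 RPKM or none, a threshold of 4-fold, intervals that exclude 1, and leaving out each member. Named genes are the members, the 2 genes furthest from 0 of each list and comparison, the 5 nearest to Lyz1 and to Ang4, and the genes around Mmp7 and Yap1; other genes were chosen after their values were seen. Members and lists were chosen with earlier results of these data known. Listed genes without a row are Ang3, Gfi1, Mptx1, Pla2g2a and Itlnb, by the symbols searched. Scripts ran in Python 3.11.15 with numpy 2.4.6 and scipy 1.17.1. One gene that the naming rule selects is not reported here.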

Additional observations from a re-analysis of the deposited data

How the results depend on the processing

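No paired analysis was possible because each group has 1 library. Directions of the members' medians held under every alternative tried. The count of members higher in Yap-/- organoids went from 2 to 0 at 4-fold and to 9 with intervals that exclude 1. With doxycycline, the count of lower members went from 1 to 3 at a pseudocount of 0.1, to 0 at 4-fold and to 7 by intervals, the count of higher members from 0 to 1 by intervals, and the median from -0.68 to -0.75 and -0.58 at pseudocounts of 0.1 and 5. Between the reference libraries, the count of lower members went from 2 to 0 at 4-fold and to 9 by intervals, and the median from -0.72 to -0.90 at a pseudocount of 0.1, -0.88 at a floor of 5 RPKM and -0.58 after median-ratio scaling. The threshold and interval rules change what is counted by construction. Of 108 single-gene alternatives, 82 were labelled the same and 26 moved, with 0 called ratios reversed. The label does not mean that a value lay within its counting interval. Lyz2 with doxycycline, for example, was labelled the same at a pseudocount of 5, where its log2 ratio went from -0.53 to -0.17. Lyz2, with 46 to 89 reads, is the member that depth limits most.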

Other observations

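Across the lines, pairs that the design does not set against each other were compared after the values were seen. Yap-/- and uninduced YapTg organoids were close for some of the 9 Paneth cell genes and apart for others. Mmp7 was at 95.2 and 96.3 RPKM, Itln1 at 1119 and 1192 RPKM and Lyz1 at 3010 and 3772 RPKM. Pnliprp2 was 1.48-fold higher in Yap-/- organoids, at 53.0 and 35.8 RPKM (95% interval 1.41 to 1.55), and Nupr1 was 1.46-fold lower, at 8.88 and 12.9 RPKM (95% interval 1.35 to 1.57). The median absolute log2 ratio of the 9 genes was 0.20 in this pair, against 0.21 over all 10904 genes at 1 RPKM. Yap+/- and induced YapTg organoids were close for some members, with Mmp7 at 62.5 and 62.7 RPKM and Clps at 43.9 and 43.0 RPKM, and apart for others, with Nupr1 at 7.46 and 12.9 RPKM. Over the 8 members at 1 RPKM the median absolute log2 ratio was 0.37 there, against 0.38 over 11076 genes. In the pairs the design compares, the same measure was 0.70 for the 9 genes and 0.09 for all genes with loss of Yap, 0.68 and 0.29 with doxycycline, and 0.72 and 0.21 between the reference libraries.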
